A study of Mus musculus with 35 samples.

Results

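The 10 genes described here mark the endothelial cells of brain vessels and their barrier: Cldn5, Cdh5, Pecam1, Flt1, Kdr, Tek, Tie1, Slco1a4, Abcb1a and Ly6c1. They were taken by name from 54119 genes measured in 35 libraries. The libraries are labelled as astrocytes of the hypothalamus, hippocampus or cortex, so the vessel genes report on cells that the sort was not meant to keep. Male C57BL/6JRj mice ate either SC, the standard chow, or HFHS (58%), a diet rich in fat and sugar. The diets began at 8 to 9 weeks of age and lasted 4 months, and the tissue of 2 animals was pooled for each replicate. No group carries a transgene or deletion that the labels name. Hypothalamus gave 6 SC and 5 HFHS libraries, hippocampus 5 and 7, and cortex 6 and 6. ACSA2, a surface antigen of astrocytes, was the handle for the magnetic sort, and the RNA was amplified with a low-input SMART-Seq kit that does not keep strand. The labels do not say whether the regions of 1 pool came from the same animals, so p-values measure the spread between pools. Hypothalamus and hippocampus cells passed MS columns and cortex cells LS columns with larger reagent volumes, so column and region cannot be told apart.

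Endothelial cells of brain vessels form the blood-brain barrier. Tight junctions built on claudin 5 seal the path between the cells, and efflux pumps and carriers in their membranes decide what crosses. Signalling through VEGF and angiopoietin receptors keeps the vessels alive and stable, and Wnt and Norrin ligands from surrounding neural cells maintain the barrier program.

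Every one of the 10 genes was detected in all 35 libraries, which held between 47578560 and 65982495 reads each. All 10 passed the filter on low counts in every comparison. Cldn5 had between 340 and 35305 reads per library, and Cdh5, the least abundant, between 23 and 1392. Summed over the 10 genes, the level went from 72.6 TPM in hypothalamus HFHS replicate 2 to 4039 TPM in cortex SC replicate 4. TPM, the depth-scaled transcript unit of Salmon, corrects for transcript length, so it is the scale on which genes are compared. In these bulk samples, fewer endothelial cells and less RNA per endothelial cell cannot be told apart.

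Several libraries stand apart. The mean transcript length was 1034 bases in cortex SC replicate 6, 1191 in cortex HFHS replicate 6 and 1469 in hypothalamus SC replicate 6, against 1533 to 1858 bases in the others. Hypothalamus HFHS replicate 2 had the highest astrocyte marker sum of its group, 17711 TPM, and the lowest endothelial sum of all 35. The fractions were not pure astrocytes: the 10 oligodendrocyte markers summed to between 6728 and 97451 TPM, and mural, fibroblast, microglial and blood cell markers were found in every group, with no marker of these lists at 0 throughout a group.

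Cldn5 encodes the main claudin of the brain endothelial tight junction. In hypothalamus SC its level had a lowest value of 50.2 TPM, a median of 79 and a highest of 149, and in hypothalamus HFHS the libraries read 76.3, 9.56, 42.3, 67.2 and 128 TPM. The hippocampus SC libraries read 112, 60.9, 73.9, 204 and 163 TPM, and the hippocampus HFHS libraries ran from 34.3 through a median of 93.6 to 136 TPM. These groups overlap over most of their range, apart from the low hypothalamus HFHS replicate 2.

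Cortex was different in form. Cortex SC libraries read 359, 43.1, 30.7, 741, 374 and 28.1 TPM of Cldn5, and cortex HFHS libraries 214, 238, 47.7, 210, 307 and 48.9 TPM. The 12 cortex libraries thus fell into separate ranges, 5 of them between 28.1 and 48.9 TPM and 7 between 210 and 741 TPM, with both diets in each range. The 5 in the lower range lay below the median of every hypothalamus and hippocampus group, and the 7 in the upper range lay above every hypothalamus and hippocampus library. A cortex mean therefore describes no single library: it was 263 ± 285 TPM (SD, n = 6) on SC and 178 ± 106 TPM (SD, n = 6) on HFHS.

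The other genes of the endothelial junction were lower. Pecam1, the adhesion molecule CD31, had a median over the 35 libraries of 10.4 TPM and a range of 1.55 to 112 TPM. Cdh5, VE-cadherin of the adherens junction, had a median of 0.795 TPM and a range of 0.16 to 7.55 TPM. Cdh5 was thus the least abundant of the 10 by median TPM.

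Among the receptors, Flt1 stood above the other 3, whose medians were close to each other. Flt1, VEGF receptor 1, had a median of 23.5 TPM and a highest value of 194 TPM, and Kdr, the main signalling receptor for VEGF, a median of 7.65 and a highest value of 28 TPM. Tek, the angiopoietin receptor Tie2, and Tie1, its co-receptor, had medians of 8.18 and 6.76 TPM. In Tek the lowest and highest library differed 115-fold in TPM, the widest TPM range of the 10 genes, against 42.3-fold in Kdr, the narrowest. The lowest TPM of both was in cortex SC replicate 6, the library with the shortest transcripts. On log2 CPM, a count scaled to library size, Tek was not the widest. There it ran from 2.38 to 8.00, and Cldn5 from 2.85 to 9.12.

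Transporters and surface proteins included the most abundant members. Slco1a4, an organic anion carrier of the barrier, had a median of 57.8 TPM and a range of 6.43 to 502 TPM. Abcb1a, a P-glycoprotein drug efflux pump, had a median of 5.29 TPM and a range of 1.1 to 47.4 TPM. Ly6c1, a surface protein of brain endothelium, was the most abundant of the 10, with a median of 212 TPM and a range of 39.6 to 2276 TPM.

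**Figure D1:**
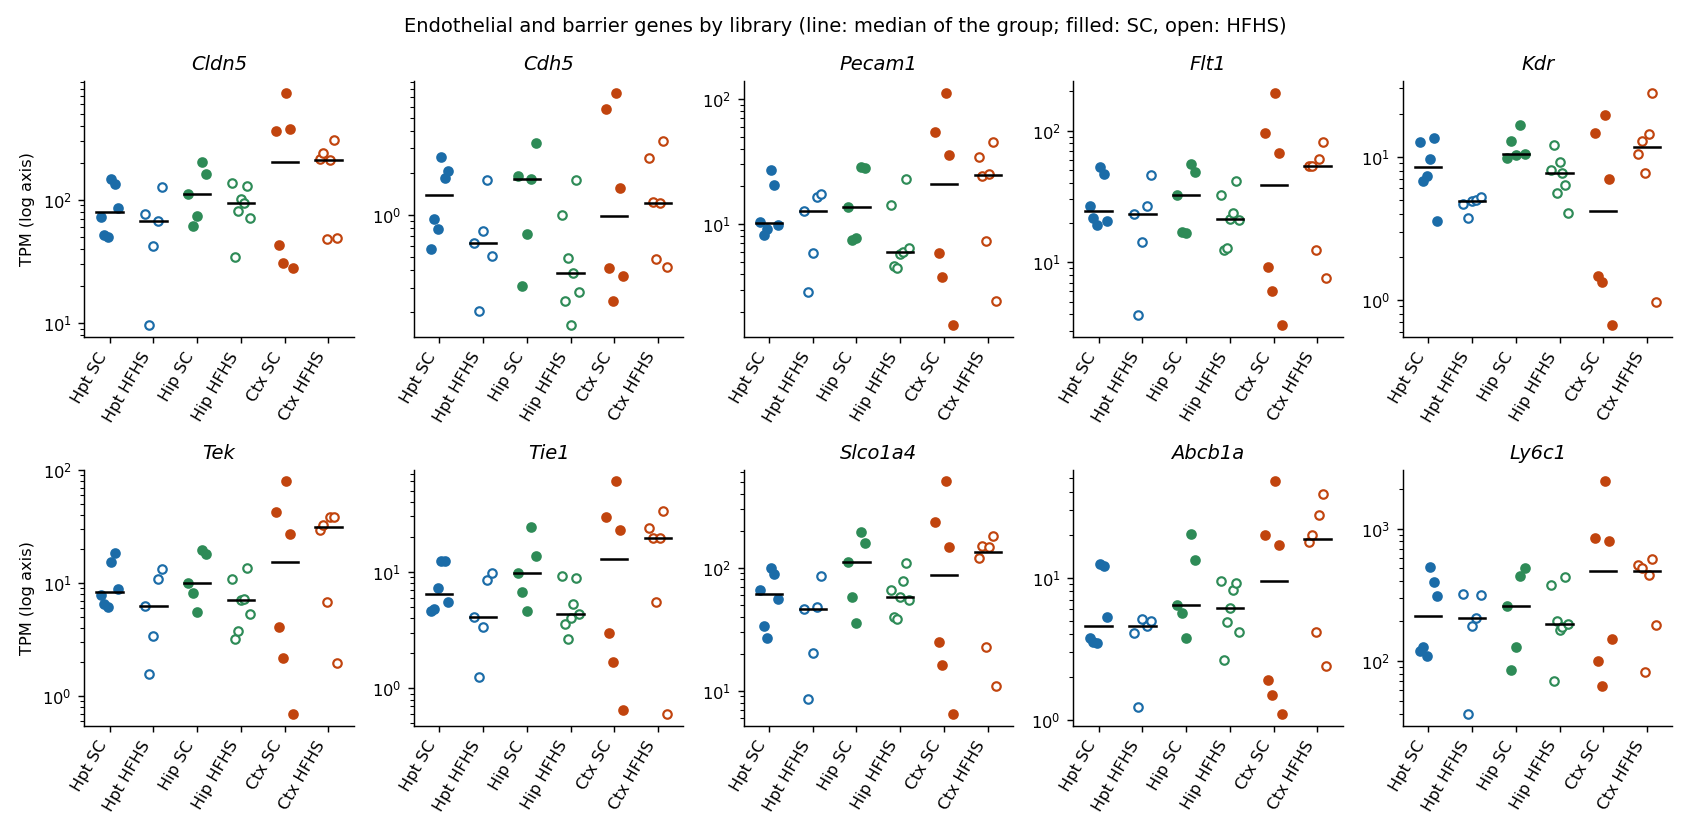
TPM of each of the 10 genes in every library, on log axes, by region (Hpt hypothalamus, Hip hippocampus, Ctx cortex) and diet, with filled points for SC, open points for HFHS and a line at the group median. The cortex libraries separate into a low and a high range for most genes, for example 28.1 to 48.9 and 210 to 741 TPM of Cldn5.

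The order of the group means depended on a few libraries. By mean TPM, cortex SC was highest for 8 genes and cortex HFHS for 2, and hypothalamus HFHS was lowest for 8 and hippocampus HFHS for 2. By median, cortex HFHS was highest for 8 genes, and Ly6c1 had its highest median in cortex SC and Cdh5 in hippocampus SC. Kdr had its lowest median, 4.2 TPM, in cortex SC and its highest, 11.7 TPM, in cortex HFHS. For each of the 10 genes, every pair of neighbours in the order of means overlapped in range.

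The loci lie on 7 chromosomes of build GRCm38 in GENCODE release 21. Cldn5 is on chromosome 16 (18776847-18778262), Cdh5 on 8 (104101625-104144511), Pecam1 on 11 (106654217-106750628) and Ly6c1 on 15 (75044018-75048830). Chromosome 5 holds Flt1 (147561604-147726011), Kdr (75932827-75978458) and Abcb1a (8660077-8748575). Chromosome 4 holds Tek (94739289-94874976) and Tie1 (118471191-118490061), and chromosome 6 holds Slco1a4 (141805440-141856199).

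Promoters are shown for Cldn5, Flt1, Kdr and Tek, chosen only by how near their starts lay in the RefSeq and GENCODE annotations. RefSeq promoter sequences (build GRCm38.p6) matched 8 of the 10 genes, and the start lay within 5 bases of the GENCODE start in these 4. The 250 bases before the start are given 5′ to 3′, with matches to the searched motifs in capitals.
Cldn5 (chr16:18776597-18776846, plus strand): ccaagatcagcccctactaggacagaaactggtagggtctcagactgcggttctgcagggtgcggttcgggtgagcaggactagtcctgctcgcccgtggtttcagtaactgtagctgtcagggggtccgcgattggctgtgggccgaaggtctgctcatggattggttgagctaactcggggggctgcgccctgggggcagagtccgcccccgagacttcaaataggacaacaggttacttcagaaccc
Flt1 (chr5:147726012-147726261, minus strand): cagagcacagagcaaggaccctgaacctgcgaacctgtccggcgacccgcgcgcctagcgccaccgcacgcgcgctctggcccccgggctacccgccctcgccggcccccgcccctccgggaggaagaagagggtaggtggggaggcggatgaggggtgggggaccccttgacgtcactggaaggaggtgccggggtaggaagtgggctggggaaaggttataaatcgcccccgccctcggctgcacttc
Kdr (chr5:75978456-75978705, minus strand): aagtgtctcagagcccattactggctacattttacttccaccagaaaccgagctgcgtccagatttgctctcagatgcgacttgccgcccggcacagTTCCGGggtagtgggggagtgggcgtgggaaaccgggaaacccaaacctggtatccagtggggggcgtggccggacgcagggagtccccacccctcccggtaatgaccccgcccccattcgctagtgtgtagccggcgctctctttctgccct
Tek (chr4:94739039-94739288, plus strand): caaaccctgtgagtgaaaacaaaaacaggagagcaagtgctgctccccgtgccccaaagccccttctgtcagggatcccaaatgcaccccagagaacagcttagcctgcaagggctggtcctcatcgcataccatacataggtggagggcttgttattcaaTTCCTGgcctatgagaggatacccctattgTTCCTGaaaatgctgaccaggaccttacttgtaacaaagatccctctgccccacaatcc

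The motifs searched on both strands were the ETS site forms CAGGAA and CCGGAA, the TCF/LEF site ATCAAAG and the GATA site AGATAA. None of them overlapped another here. The Tek window held CAGGAA at 2 places, both as TTCCTG on the strand shown, and the Kdr window held CCGGAA once, as TTCCGG. The Cldn5 and Flt1 windows held none of these exact strings. The shorter core GGAA, common to both ETS forms, was not searched. Of 32536 windows of this length over all genes, 25.6% held CAGGAA, 12.1% CCGGAA, 3.21% ATCAAAG and 9.97% AGATAA. GC content was 70.4% in the Flt1 window, 61.6% in Kdr, 59.6% in Cldn5 and 51.2% in Tek, against a median of 52.4% over all windows.

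Flt1 gives rise to a membrane receptor and to a shorter, secreted form that lacks the membrane span and kinase domain and binds VEGF without signalling. Both forms are in the annotation, as Flt1-202 with 1333 codons and Flt1-203 with 688 codons. They share their first 1972 coding bases. The point where they part is printed here because it tells the forms apart, with 60 shared bases in lower case and the following 92 bases of each form in capitals. The capitals of Flt1-203 read on past the end of the shared exon into the next intron of Flt1-202 on chromosome 5 (147639133-147639224, minus strand), and those of Flt1-202 come from its next exon (147634432-147634523).
Flt1-203 (soluble): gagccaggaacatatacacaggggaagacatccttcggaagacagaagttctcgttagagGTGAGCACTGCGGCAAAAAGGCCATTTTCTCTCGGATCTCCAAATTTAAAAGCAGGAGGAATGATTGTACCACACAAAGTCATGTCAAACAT
Flt1-202 (full length): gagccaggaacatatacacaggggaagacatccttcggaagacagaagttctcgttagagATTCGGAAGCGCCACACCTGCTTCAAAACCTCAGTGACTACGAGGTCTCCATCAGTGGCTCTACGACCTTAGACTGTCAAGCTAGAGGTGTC

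The shorter form was the more abundant coding transcript. Flt1-203 exceeded Flt1-202 in 34 of 35 libraries, with a median ratio of 2.91. The exception was cortex SC replicate 6, the library with the shortest transcripts, at a ratio of 0.985, and the highest ratio was 4.22 in hypothalamus SC. Ratios ran from 2.85 to 3.54 in hippocampus SC and from 1.58 to 3.38 in hippocampus HFHS, and the ranges overlapped between all groups. A further noncoding transcript, Flt1-201, held a mean of 45.2% of the gene's TPM. These shares rest on how Salmon divided reads among transcripts that share most of their sequence.

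**Figure D2:**
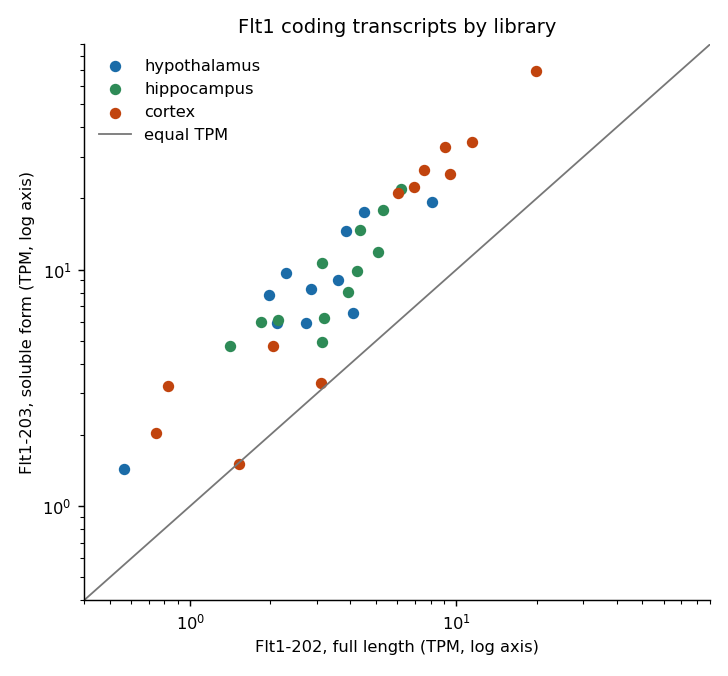
TPM of the soluble form (Flt1-203) against the full-length form (Flt1-202) in each of the 35 libraries, on log axes, coloured by region, with a line at equal TPM. The points lie above the line in 34 libraries, at a median ratio of 2.91.

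Transcript use of the remaining members was simpler or less certain. Cldn5 has 1 annotated transcript in the files, and Kdr-201 held 99.9% of Kdr TPM. Tek-203, the longest Tek coding form, held 56.6% ± 7.76 (SD, n = 35) of its gene. In Abcb1a, a retained-intron transcript held 21.8% ± 21.5 (SD, n = 35), and the share ran from 0 to 71.9% between libraries. In Slco1a4, a 622-base partial coding transcript held 43.9% ± 2.95 (SD, n = 35), while both transcripts with a complete coding sequence of 2010 bases held 19% and 35.2%.

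Near-identical paralogs could share reads with 3 members. Ly6c2 is 97.7% identical to Ly6c1 over the coding bases, yet its level was at most 7.16 TPM where Ly6c1 reached 2276 TPM. How reads common to both were divided is uncertain at this identity. Abcb1b, the second mouse P-glycoprotein gene, is 87.7% identical to Abcb1a and had between 0.828 and 7.63 TPM. The carriers Slco1a5, Slco1a1 and Slco1a6 are 89.4%, 86.7% and 85.0% identical to Slco1a4. Slco1a1 reached at most 0.0134 TPM, and Slco1a5 reached 12.7 TPM in hippocampus SC and at most 1.62 TPM in cortex.

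The first comparison asks whether vessel genes differ between regions. Fold changes here are edgeR values on counts per gene, with Benjamini-Hochberg adjustment over 21574 genes and a threshold of 0.05. SC and HFHS libraries come from different mice, so each diet gives its own measurement, though both rest on 1 estimate of the spread.

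On SC, 2 of the 10 genes were lower in hypothalamus than in cortex. All 10 fitted changes were negative, with a median log2 fold change of -1.54 beside 0.06 over all genes tested. The libraries overlapped: the summed TPM of the 10 genes was 324, 264, 239, 897, 744 and 509 in hypothalamus SC and 1701, 193, 128, 4039, 1511 and 190 in cortex SC. Cortex replicates 2, 3 and 6 thus lay below every hypothalamus library and replicates 1, 4 and 5 above. Cldn5 fell by 1.77 on the log2 scale (SE 0.58, adjusted p = 0.0157), a level 3.41-fold lower. Ly6c1 fell by 1.72 (SE 0.63, adjusted p = 0.0309): the hypothalamus SC libraries had a lowest value of 109, a median of 219 and a highest of 515 TPM, and the cortex SC libraries 64.3, 479 and 2276 TPM. The lowest cortex libraries lay under the lowest hypothalamus libraries for both genes, and the highest cortex libraries above the highest hypothalamus libraries, so the hypothalamus range lies inside that of cortex.

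Of all genes tested, 36.1% passed in this comparison and 18.3% passed with a lower level in hypothalamus. The 2 of 10 vessel genes that passed are near that background. Pecam1, Tek, Tie1, Slco1a4 and Abcb1a had log2 fold changes from -1.59 to -1.48 with adjusted p from 0.0576 to 0.0703, and Flt1 had -1.24 (adjusted p = 0.0975). Kdr stood at -0.04 (SE 0.48, adjusted p = 0.962). With the replicate number as a block none passed, and Cldn5 stood at -1.09 (adjusted p = 0.0798) and Ly6c1 at -1.19 (adjusted p = 0.0622). The count rested on single libraries: it was 0 without cortex SC replicate 4, 7 without cortex SC replicate 2 or 6, and 8 without cortex SC replicate 3. It was 1 without hypothalamus SC replicate 1, 2 or 3, 5 without replicate 4 and 4 without replicate 5. DESeq2 called 7, and 7 passed without the 3 libraries of short transcripts. The share of all genes that passed in these other settings is not given, here or for the comparisons below. Their counts are therefore not read against a background.

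On HFHS the hypothalamus was again lower than cortex in all 10 fitted values, with a median log2 fold change of -1.53 beside 0.01 over all genes, but other genes passed. Abcb1a fell by 2.32 (SE 0.71, adjusted p = 0.0150), a level 4.99-fold lower. Its hypothalamus HFHS libraries read 4.11, 1.23, 5.09, 4.61 and 5.00 TPM, and its cortex HFHS libraries ran from 2.39 through a median of 18.8 to 38.6 TPM. Cortex replicates 3 and 6 lay within the hypothalamus range and the other 4 above it.

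Tek fell by 1.99 (SE 0.72, adjusted p = 0.0421) and Kdr by 1.49 (SE 0.52, adjusted p = 0.0351) in the same comparison. Kdr had 4.68, 3.76, 4.88, 4.95 and 5.25 TPM in hypothalamus HFHS, the narrowest group of any member, and between 0.968 and 28 TPM in cortex HFHS. Cldn5 had -1.61 (adjusted p = 0.0517). Of all genes, 23.9% passed and 9.21% were lower in hypothalamus, against 3 of the 10. The count was 1 without cortex HFHS replicate 2, 4 or 5 or hypothalamus HFHS replicate 1, 2, 3 or 4, and 5 without cortex HFHS replicate 6. DESeq2 called 6, as did the fit without the short libraries. With the replicate number as a block 5 passed, these 3 with Tie1 (-2.06, adjusted p = 0.0171) and Pecam1 (-1.42, adjusted p = 0.0364).

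Hippocampus against cortex gave smaller differences. On SC, no vessel gene passed in edgeR (2 had an unadjusted p under 0.05, and DESeq2 called 2), where 30.8% of all genes passed and 15.3% were lower in hippocampus. The median log2 fold change was -1.02 beside 0.04 over all genes, and Ly6c1 (-1.58, adjusted p = 0.0691) and Cldn5 (-1.36, adjusted p = 0.0845) came nearest. Kdr was the 1 member with a positive value, 0.49 (SE 0.50, adjusted p = 0.487). The count rose to 2 without cortex SC replicate 2 or 3.

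On HFHS, Tek fell by 1.88 (SE 0.64, adjusted p = 0.0298) and Abcb1a by 1.80 (SE 0.61, adjusted p = 0.0305) in hippocampus against cortex. Tek had a lowest value of 3.23, a median of 7.1 and a highest of 13.5 TPM in hippocampus HFHS, and 1.98, 31.2 and 38.7 TPM in cortex HFHS. Of all genes, 24.2% passed and 10.8% were lower in hippocampus, against 2 of the 10, and the median of the 10 was -1.22 beside 0.05. The count was 0 without cortex HFHS replicate 2, 4 or 5 or hippocampus HFHS replicate 2 or 3. It was 1 without hippocampus HFHS replicate 4 or 7, and 4 without replicate 6 or without the short libraries. It was 0 with the replicate number as a block.

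Between hypothalamus and hippocampus, which shared column type, none of the 10 genes passed in the fit that takes all libraries as independent. On SC the median log2 fold change was -0.38, where 10.0% of all genes passed, and on HFHS it was -0.19, where 6.42% passed. No member had an unadjusted p under 0.05 in either diet, and DESeq2 called none. The largest fitted value was -0.81 (SE 0.66) for Slco1a4 on SC. With the replicate number as a block, 3 passed on SC, Slco1a4 (-0.82, adjusted p = 0.00537), Abcb1a (-0.64, adjusted p = 0.0373) and Cldn5 (-0.45, adjusted p = 0.0480), and Kdr passed on HFHS (-0.90, adjusted p = 0.0282). On SC the block lowered the SE of Slco1a4 from 0.66 to 0.14 and that of Cldn5 from 0.58 to 0.13. The result thus depends on what the number marks.

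On SC, Cldn5 lay on the same side of its group mean in all 3 regions for 4 of the 5 replicate numbers found in each region. The deviation from the group mean in hypothalamus, hippocampus and cortex was -0.70, -0.86 and -1.63 log2 CPM in replicate 2, and -0.74, -0.56 and -2.15 in replicate 3. It was 0.82, 0.79 and 2.20 in replicate 4 and 0.69, 0.51 and 1.37 in replicate 5. Replicate 1 had both signs, and so had replicate 6, which has no hippocampus library on SC. On HFHS, replicates 1, 4 and 5 lay above their group means in all 3 regions. The deviations, in the same order, were 0.80, 0.77 and 0.44 in replicate 1 and 0.31, 0.21 and 0.37 in replicate 4. They were 1.35, 0.14 and 0.78 in replicate 5. HFHS replicates 2 and 3 had both signs, with 0.03 in hippocampus for replicate 3. So had replicate 6, which has no hypothalamus library on HFHS. The labels do not say what a number marks, so libraries of 1 number may not be independent.

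**Figure D3:**
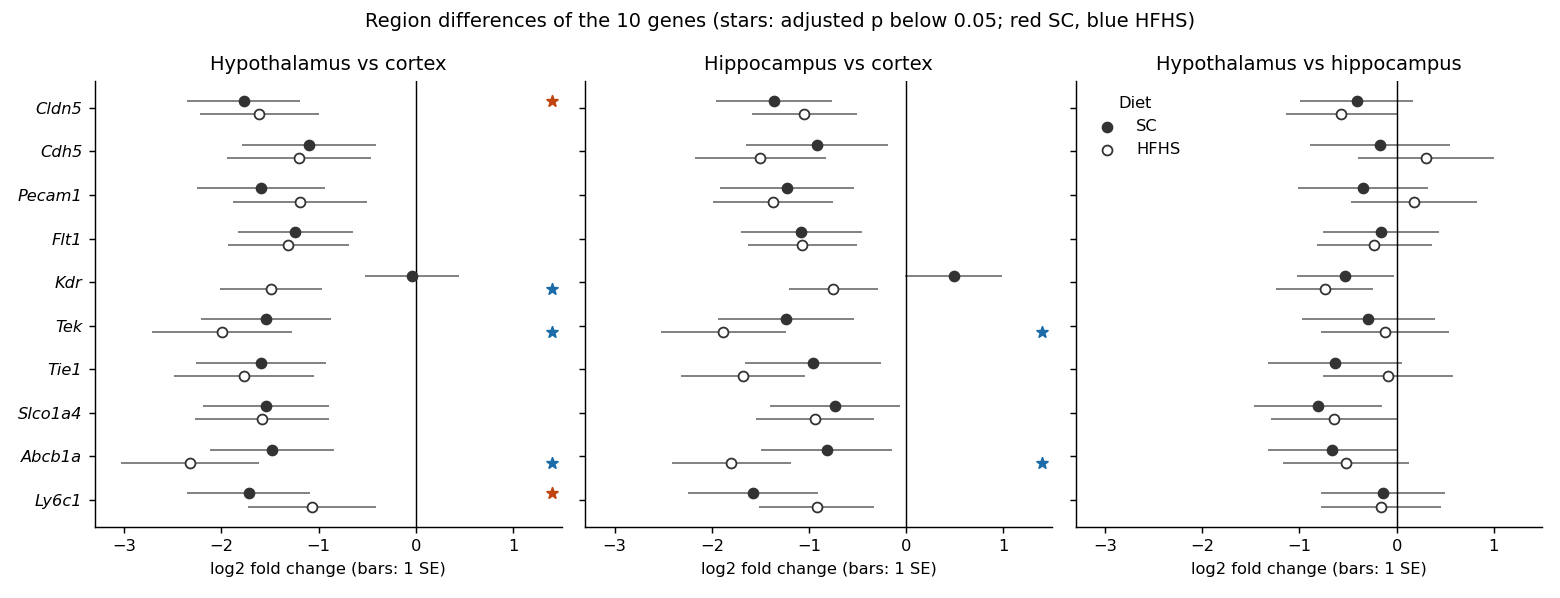
Log2 fold change of each of the 10 genes between regions, with bars of 1 SE, filled points for SC and open points for HFHS, and stars where the adjusted p was below 0.05. Values against cortex are negative for all genes except Kdr in hippocampus on SC (0.49), and no value between hypothalamus and hippocampus has a star.

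Other cell types moved with the cortex comparisons. Of all genes, 36.1% passed in either direction in hypothalamus and 30.8% in hippocampus against cortex on SC, and 23.9% and 24.2% on HFHS. On SC, 16 of 18 astrocyte markers were lower in hypothalamus than in cortex and 17 of 18 in hippocampus, and 6 and 4 of 8 fibroblast markers were higher. On HFHS, 5 and 17 astrocyte markers were lower, and 7 and 5 fibroblast markers were higher. The astrocyte sum ran from 3306 to 5541 TPM in hypothalamus SC, from 1595 to 10118 in hippocampus SC and from 10396 to 24676 in cortex SC. Mural sums overlapped, from 334 to 1056 TPM in hypothalamus SC, 683 to 1327 in hippocampus SC and 122 to 1111 in cortex SC. Fibroblast sums ran from 84.7 to 402 TPM in hypothalamus and hippocampus SC and from 13.6 to 105 TPM in cortex SC. None of the 13 blood cell markers passed in edgeR against cortex on SC, with 0 in hypothalamus and 1 in hippocampus at an unadjusted p under 0.05. Other brain cell lists differed as well. In hypothalamus against cortex on SC, 10 of 10 ependymal, 9 of 9 oligodendrocyte precursor and 3 of 10 oligodendrocyte markers were higher, and 5 of 10 neuron markers were lower and 1 higher. In hippocampus against cortex on SC, 9 of 10 ependymal, 8 of 9 oligodendrocyte precursor, 7 of 10 oligodendrocyte and 6 of 8 choroid plexus markers were higher and 7 of 10 neuron markers were lower. The part of these shares in the vessel gene differences was not tested.

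The wider lists are read against the share of all genes that passed with a lower level: 18.3% in hypothalamus and 15.3% in hippocampus against cortex on SC, and 9.21% and 10.8% on HFHS. In the same order, 36.1%, 30.8%, 23.9% and 24.2% of all genes passed in either direction. Of 22 endothelial identity genes, 10 fell in hypothalamus against cortex on SC and none rose, with a median of -1.35, and 6 fell on HFHS. The transcription factors Sox18 (-2.15, adjusted p = 0.0113) and Erg (-1.86, adjusted p = 0.0182) and the adhesion receptor Adgrl4 (-1.77, adjusted p = 0.0468) were the largest on SC. In hippocampus, 1 of 22 fell on SC, Ramp2, a receptor accessory protein (-1.83, adjusted p = 0.00105), and 5 fell on HFHS, led by the phosphatase gene Ptprb (-2.06, adjusted p = 0.00771). Between hypothalamus and hippocampus none of the 22 passed in either diet, with 0 and 1 at an unadjusted p under 0.05.

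Tight and adherens junction genes other than the members went both ways. Of 14, 3 rose and 1 fell in hypothalamus against cortex on SC, and 3 rose and 1 fell in hippocampus. With both directions together, these counts are no higher than the 36.1% and 30.8% of all genes that passed. Jam2, a junctional adhesion molecule, was the 1 that fell in each (-1.19, adjusted p = 0.00881, and -1.61, adjusted p = 0.00183), and its relative Jam3 rose in each (0.98 and 1.48, adjusted p = 0.00819 and 0.000456). Amotl2, an angiomotin family scaffold, rose in hypothalamus (1.69, adjusted p = 0.000349). On HFHS, none passed in hypothalamus and 1 rose and 1 fell in hippocampus.

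Barrier transporters differed gene by gene. Of 18, 4 fell and 1 rose in each of hypothalamus and hippocampus against cortex on SC, near the 18.3% and 15.3% of all genes that were lower. Slco1c1, a thyroid hormone carrier that astrocytes also express, fell by 3.11 in hypothalamus (SE 0.39, adjusted p = 1.68e-07) and was lower there than in hippocampus as well (-2.09, adjusted p = 0.000829). Its level was 42.3 ± 15.3 TPM in hypothalamus SC (SD, n = 6), 173 ± 116 in hippocampus SC (SD, n = 5) and 274 ± 127 in cortex SC (SD, n = 6). Mfsd2a, a lipid carrier of the barrier, fell by 2.16 in hippocampus (SE 0.33, adjusted p = 1.88e-05). On HFHS, 5 fell and 1 rose in hypothalamus and 3 fell in hippocampus.

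Abcb1b showed an order unlike that of Abcb1a. It was lower in hippocampus than in cortex on SC (-1.25, SE 0.25, adjusted p = 0.000436) and higher in hypothalamus than in hippocampus on SC (1.55, SE 0.26, adjusted p = 0.000279) and on HFHS (0.98, SE 0.24, adjusted p = 0.00947). In hippocampus SC it had 1.64, 3.58, 2.01, 3.12 and 1.71 TPM, and in hypothalamus SC 3.21, 7.58, 4.69, 6.85, 7.63 and 5.46 TPM. These groups overlap only between the lowest hypothalamus and the highest hippocampus library. The Abcb1a values for the same contrasts were -0.82, -0.66 and -0.52, none past the threshold.

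Of 18 Wnt and Norrin pathway genes, 8 fell and none rose in hypothalamus against cortex on SC, and 5 fell in hippocampus, where 18.3% and 15.3% of all genes were lower. Ndp, which encodes Norrin, fell by 2.84 in hypothalamus (SE 0.39, adjusted p = 6.08e-07), the co-receptor gene Tspan12 by 2.33 (adjusted p = 1.03e-05) and the Wnt ligand gene Wnt7a by 2.26 (adjusted p = 0.00481). In hippocampus Wnt7a fell by 2.89 (adjusted p = 0.00185) and Wnt7b by 2.36 (adjusted p = 0.00464). On HFHS, 5 fell and 1 rose in each region. Astrocyte markers moved the same way, as given above.

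Of 18 VEGF and angiopoietin pathway genes, 6 fell and 1 rose in hypothalamus against cortex on SC, and 6 fell and 2 rose in hippocampus. Apln, an angiogenic peptide gene, fell by 2.31 (adjusted p = 1.78e-06), Vegfc by 1.79 (adjusted p = 0.0128) and Vegfa, the ligand of Flt1 and Kdr, by 1.75 (adjusted p = 0.00179) in hypothalamus. In hippocampus the receptor Notch4 fell by 1.95 (adjusted p = 0.00165), Vegfb by 1.81 (adjusted p = 0.00458), and the guidance receptor Unc5b rose by 1.70 (adjusted p = 0.00386). On HFHS, 2 fell in hypothalamus and 3 in hippocampus.

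Genes of arteries and veins and of leaky or inflamed vessels were also read. Of 13 artery and vein genes, 5 fell in hypothalamus and 3 in hippocampus on SC, among them the arterial gene Gkn3 (-2.41, adjusted p = 0.00701, and -2.01, adjusted p = 0.0361). On HFHS, 4 fell in hypothalamus, and 7 fell and 1 rose in hippocampus. Of 11 permeability and leukocyte adhesion genes, Vcam1 fell in hypothalamus on SC (-2.34, adjusted p = 2.6e-05). In hippocampus 2 fell, Plvap, a diaphragm protein of fenestrated endothelium (-1.58, adjusted p = 0.0202), and Vcam1 (-1.18, adjusted p = 0.0284). Plvap was present at 1.35 to 9.64 TPM in all libraries. On HFHS none passed in hypothalamus, and in hippocampus Icam1 rose (1.86, adjusted p = 0.024) and the caveolar gene Cavin1 fell (-1.25, adjusted p = 0.0309).

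The second comparison asks whether the diet changed vessel genes within a region. No member passed in any region, and no gene of the whole table did: 0% of 19272 genes in hypothalamus, 0% of 19036 in hippocampus and 0% of 17844 in cortex passed in edgeR, with 1639, 984 and 1652 at an unadjusted p under 0.05. DESeq2 called 87, 15 and 504 genes, with none of the 10 among them.

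In hypothalamus all 10 fitted values were below 0 on HFHS, from -0.20 for Ly6c1 to -0.89 for Cdh5, with a median of -0.47 beside -0.01 over all genes. Kdr was the 1 gene with an unadjusted p under 0.05 in edgeR, at -0.77 (SE 0.26, adjusted p = 0.482). Its hypothalamus SC libraries read 12.6, 6.75, 7.37, 9.59, 13.6 and 3.58 TPM. The HFHS values, from 3.76 to 5.25 TPM, lay below 5 of these 6 and above hypothalamus SC replicate 6, a library of short transcripts.

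In hippocampus all 10 values were likewise below 0, from -0.20 for Ly6c1 to -1.38 for Cdh5, with a median of -0.71 beside 0.00. Tie1 had -0.99 (SE 0.41, adjusted p = 0.876) and Kdr -0.57 (SE 0.24, adjusted p = 0.876), and both had an unadjusted p under 0.05 in edgeR. Kdr had 9.83, 12.9, 10.3, 16.6 and 10.4 TPM in hippocampus SC, and 8.05, 12.1, 5.62, 9.17, 7.65, 6.36 and 4.04 TPM in hippocampus HFHS. The HFHS libraries were lower but for replicate 2, which lay within the SC range. The members are counted by the same libraries, so their common sign is not 10 separate observations.

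In cortex the spread was the widest, and the SE of the 10 values lay between 0.69 and 0.87. Kdr had 0.71 (SE 0.70, adjusted p = 0.851) and Abcb1a 0.26 (SE 0.82, adjusted p = 0.964), and the other 8 were below 0, down to -0.84 for Ly6c1. The median was -0.37 beside -0.02 over all genes.

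No marker of another cell type passed for diet in edgeR, but several lists leaned one way. In hypothalamus, 11 of 18 astrocyte markers had an unadjusted p under 0.05 and all 18 values were above 0 (median 0.85), with summed levels of 3306 to 5541 TPM on SC and 4092 to 17711 TPM on HFHS. There, 8 of 9 oligodendrocyte precursor markers had an unadjusted p under 0.05, with all 9 values below 0 (median -1.33) and sums of 304 to 641 TPM on SC and 99.7 to 347 TPM on HFHS. In hippocampus, 9 of 14 microglia markers had an unadjusted p under 0.05 and all 14 values were above 0 (median 0.79), with sums of 587 to 1126 TPM on SC and 633 to 3209 TPM on HFHS, and all 9 oligodendrocyte precursor values were below 0 (median -0.94). Their part in the vessel gene values was not tested.

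**Figure D4:**
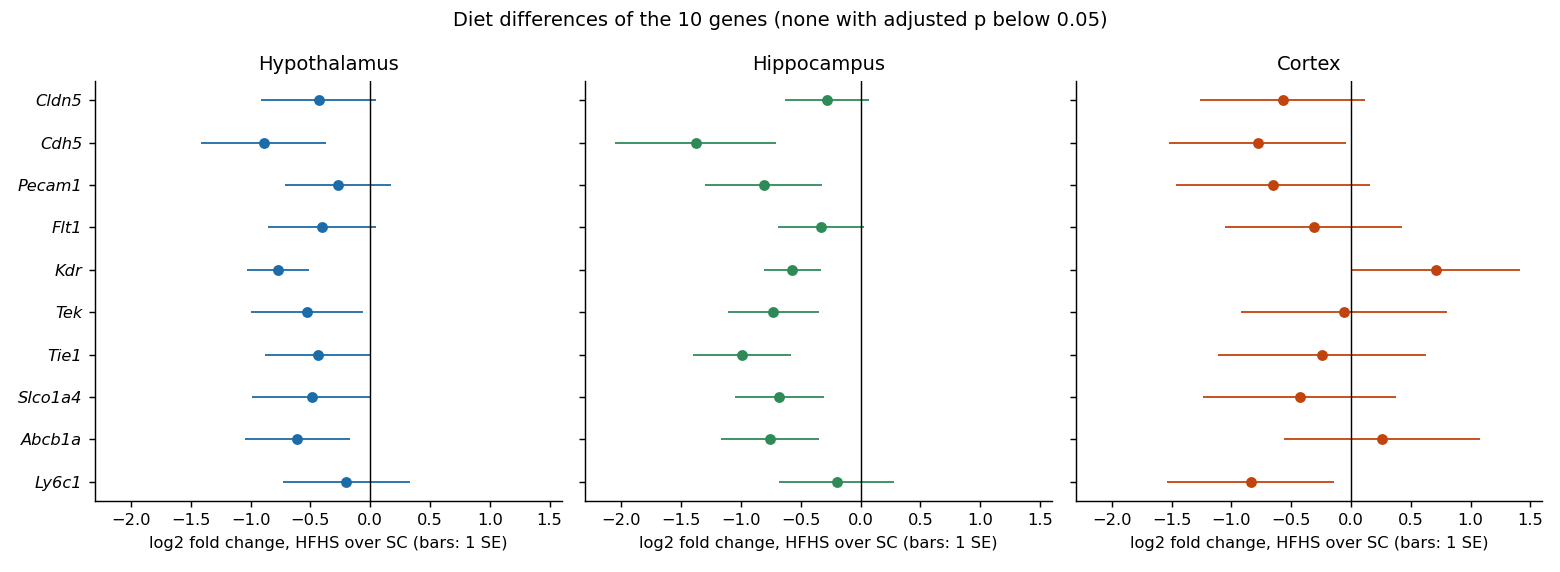
Log2 fold change of each of the 10 genes, HFHS over SC, in each region, with bars of 1 SE. All values are below 0 in hypothalamus and hippocampus and none passed the test. The cortex bars are the longest.

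Among the 7 pathway lists, no gene passed for diet in edgeR, and some had an unadjusted p under 0.05. In hypothalamus, hippocampus and cortex these were 4, 5 and 0 of 22 endothelial identity genes, 4 of 18, 1 of 17 and 3 of 16 VEGF and angiopoietin genes, and 3 of 8, 3 of 9 and 3 of 8 permeability and adhesion genes. They were 1, 0 and 1 transporter genes, 0, 0 and 2 junction genes, 1, 0 and 3 Wnt and Norrin genes, and 2, 2 and 2 artery and vein genes. The gene with the smallest p among permeability and adhesion genes was Ackr1, a chemokine-binding receptor of venules, at -3.86 in hypothalamus (SE 0.95, adjusted p = 0.472) and -3.22 in hippocampus (SE 0.82, adjusted p = 0.876). Ackr1 had 0.429 to 21.6 TPM in hypothalamus SC and 0.127 to 0.562 in hypothalamus HFHS. In hippocampus it had 0.776 to 29.9 TPM on SC and 0.411 to 1.72 on HFHS. The SC medians were 2.5 and 1.73 TPM, so the highest SC libraries lay far above the middle of their groups. In cortex the smallest p of that group was for Lcn2, a secreted acute-phase protein (-6.03, SE 1.77, adjusted p = 0.228).

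No difference of the diet response between regions passed the threshold. None of the 10 genes passed in edgeR for hypothalamus minus cortex, hippocampus minus cortex or hypothalamus minus hippocampus, where 0% of all genes passed in each and DESeq2 called none of the 10. Kdr had the largest difference, -1.45 for hypothalamus minus cortex (SE 0.70, adjusted p = 0.421) and -1.24 for hippocampus minus cortex (SE 0.68, adjusted p = 0.567). Kdr for hypothalamus minus cortex was the 1 member value with an unadjusted p under 0.05 over the 3 contrasts. With the replicate number as a block it passed, at -2.20 (SE 0.56, adjusted p = 0.0428).

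Within a group, the vessel genes rose and fell together from library to library. Each library's log2 CPM, a count scaled to library size, was taken as its deviation from the mean of its group, which removes the group means of region and diet. Because cortex fell into separate ranges, the relation was read in hypothalamus and hippocampus, with 23 libraries together and in each region. All p values are from permutation tests within groups, two-sided, adjusted over 9 genes, and the libraries share their dissociation and kit. The tests over 23 libraries take hypothalamus and hippocampus libraries of 1 number as independent. The Cldn5 values given above do not show that, so those p values may be too small.

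Flt1 followed Cldn5 most closely over the 23 libraries, with r = 0.96 and rho = 0.95 (permutation adjusted p = 1.5e-05 for both). A raw p of 1e-05 is the smallest that 100000 permutations can give, and 6 other genes stood at or next to it. Slco1a4 and Ly6c1 had r = 0.92 each, Tek 0.91, Pecam1 0.85, Tie1 0.84 and Abcb1a 0.83, with rho from 0.85 to 0.92. Cdh5 had r = 0.64 and rho = 0.70 (permutation adjusted p = 0.00144 and 0.000472). Without hypothalamus HFHS replicate 2 and hippocampus HFHS replicate 2, the 2 libraries farthest from the median of Cldn5, r was 0.94 for Flt1, 0.59 for Cdh5 and between 0.81 and 0.92 for the other 6 genes.

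Kdr was the gene that followed least. Its r with Cldn5 was 0.16 and its rho 0.32 over the 23 libraries (permutation adjusted p = 0.406 and 0.147), and r was 0.35 without the same 2 libraries. It was 0.34 in hypothalamus and -0.14 in hippocampus (permutation adjusted p = 0.148 and 0.69), where leaving out hippocampus HFHS replicate 2 and SC replicate 2 moved it to 0.61. In hippocampus HFHS replicate 2, Cldn5 was the lowest of its group, at 34.3 TPM, and Kdr the highest, at 12.1 TPM. Pairs of members without Kdr had r between 0.64 and 0.96 (median 0.88, 36 pairs), and the 9 pairs with Kdr between -0.09 and 0.37.

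Within the 7 cortex libraries of the upper range, r with Cldn5 lay between 0.41 for Cdh5 and 0.94 for Ly6c1. These libraries were set apart by the widest gap in Cldn5 itself, after the values were seen. That narrows the spread of Cldn5, so these tests cannot decide whether the genes vary together in cortex. Ly6c1 had an exact permutation p of 0.0139 (adjusted p = 0.125), which fell short after adjustment, and r was 0.76 without cortex SC replicate 4 and HFHS replicate 2. The 7 libraries allow 144 permutations within groups, and no relation passed after adjustment. Of the 5 cortex libraries in the lower range, 4 were also the lowest in Kdr, at 1.46, 1.33 and 0.663 TPM in SC replicates 2, 3 and 6 and 0.968 TPM in HFHS replicate 6. HFHS replicate 3, at 7.64 TPM, lay above cortex SC replicate 5 of the upper range, at 6.94 TPM.

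**Figure D5:**
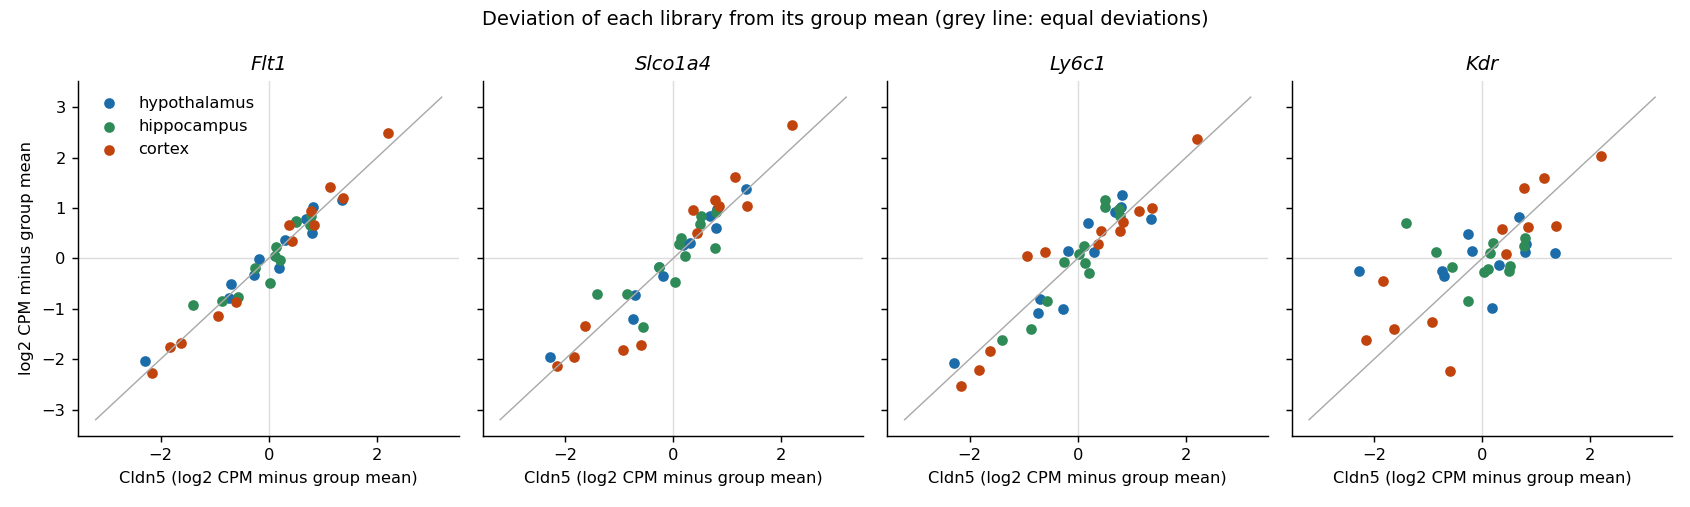
Deviation of log2 CPM from the group mean for Flt1, Slco1a4, Ly6c1 and Kdr against that of Cldn5, 1 point per library, coloured by region, with a line at equal deviations. Flt1, Slco1a4 and Ly6c1 lie along the line. Kdr follows Cldn5 less closely in hypothalamus and hippocampus libraries (r = 0.16, not past the threshold).

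Markers of blood followed Cldn5 over the 23 libraries, but not past the threshold in each region. The summed level of 13 blood cell markers had r = 0.73 and rho = 0.76 with Cldn5 (permutation adjusted p = 0.00288 and 0.00186, over 12 measures), and r was 0.70 without the 2 farthest libraries. In hypothalamus r was 0.80 and rho 0.79 (permutation adjusted p = 0.0455 and 0.101), and in hippocampus 0.59 and 0.71 (0.166 and 0.0732). Without the 2 farthest libraries of each region, r was 0.72 in hypothalamus and 0.44 in hippocampus. Blood cell sums ran from 1147 to 20959 TPM in hypothalamus and from 1386 to 8775 TPM in hippocampus. Over the 23 libraries, mural markers had r = 0.49 (permutation adjusted p = 0.145), fibroblast markers 0.48 (0.0821) and astrocyte markers -0.42 (0.12). None of these passed the threshold, and microglia stood at 0.26. Without the 2 farthest libraries, r was -0.00 for mural, 0.30 for fibroblast and -0.14 for astrocyte markers. In hippocampus alone, fibroblast markers passed, with r = 0.77 and rho = 0.81 (permutation adjusted p = 0.0418 and 0.0413). In hypothalamus their r was 0.25 (0.597). Mean transcript length had r = -0.50 (permutation adjusted p = 0.0439) and rho = -0.41 (0.223), and reads per library r = 0.10. Plvap (r = -0.07) and Abcb1b (r = -0.16) did not follow Cldn5. Ly6c2 did, with r = 0.77 and rho = 0.80 (permutation adjusted p = 0.00024 and 0.00036). It is 1 of the 13 blood cell markers and the close paralog of Ly6c1, with the division of shared reads uncertain as given above. Whether blood, fibroblasts or transcript length had a part in the relation among the vessel genes was not tested.

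The genes most like the 10 members in this within-group pattern were named by a rule. They were, by Spearman correlation with the members' mean deviation over the 35 libraries, the riboflavin carrier gene Slc52a3 and the TGF-beta family receptor gene Acvrl1 (rho = 0.97 each), then Adgrl4, the endothelial nitric oxide synthase gene Nos3, the transcription factor gene Sox18 and the efflux pump gene Abcg2 (0.96 each), and Sgms1, Cd34, Lsr and Cd93 (0.95 each). In the 23 libraries without cortex their rho lay between 0.88 for Cd93 and 0.97 for Slc52a3 and Nos3. Over 11290 genes ranked, the median rho was -0.06 and 421 genes reached 0.7. Of 91 genes of the vessel lists that were ranked, 47 reached 0.7.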

How the data were processed

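RNA of 35 pools was sequenced, and the authors deposited 1 Salmon table per library with estimated counts and TPM per transcript. Per the submitters' processing notes, FastQC and Salmon were used with build GRCm38; their versions, and the transcripts Salmon was run against, were not stated in the labels or files used. Of 140948 transcripts, 139852 matched GENCODE release 21 by identifier and were summed to 54119 genes; the rest held 0.214 to 0.535% of a library's counts and were left out of tests. Gene sums were rounded and tested with edgeR 4.0.16 in R 4.3.3 (TMM, filterByExpr, robust quasi-likelihood test, Benjamini-Hochberg adjustment over all genes kept). Diet was fitted within each region, and regions and interactions in 1 model of the 6 groups. DESeq2 1.42.0 and the other alternatives are given in the closing section. The fit was tested on simulated data. Group labels come from sample titles, and replicate numbers, whose meaning the labels do not give, enter only the block alternative. Residual log2 CPM, with a prior count of 2, was correlated with Cldn5 by permutation within groups. The restriction to libraries outside cortex and the split of cortex at its widest gap in Cldn5 were chosen after seeing the data.

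The 10 genes and the gene lists were chosen with earlier results of these data known. Named genes were all 10 members, their paralogs, up to 3 genes with the largest change among those of a list past the threshold (otherwise the gene with the smallest p), and the 10 genes with the highest Spearman correlation with the members' mean residual among genes whose mean log2 CPM reached 2.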

Additional observations from a re-analysis of the deposited data

Results flagged for a closer look

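In 60 groups of 1 gene and 5 to 7 libraries, 2 held a library far from the rest by Dixon's test, where chance marks about 1 group in 20. Abcb1a was 1.23 TPM in hypothalamus HFHS replicate 2, below the other 4 libraries of that group, which read 4.11 to 5.09 TPM. The same library was the lowest of the 35 for Cldn5 (9.56 TPM) and for Ly6c1 (39.6 TPM). Ly6c1 was 2276 TPM in cortex SC replicate 4, above the other 5 libraries of that group, which read 64.3 to 844 TPM. That library was the highest of the 35 for 9 of the 10 genes.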

How the results depend on the processing

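The number of members past the threshold depended on settings for regions, while the diet count was 0 in each setting tried. For hypothalamus against cortex on SC, where 2 passed, it was 7 in DESeq2, 4 with length-scaled TPM counts, 0 with only the groups compared and 7 without the 3 short libraries, and it ran from 0 to 8 when 1 library was left out. For hippocampus against cortex on SC, where none passed, it was 2 in DESeq2 and ran from 0 to 2. For hypothalamus against cortex on HFHS, where 3 passed, it was 6 in DESeq2, 6 without the short libraries and ran from 1 to 5. For hippocampus against cortex on HFHS, where 2 passed, it was 4 without the short libraries and ran from 0 to 4. The share of all genes that passed in each setting is not given, so a higher count may belong to a setting that called more genes of any kind. The cause was not tested. The median log2 fold change of the 10 genes was counted as the same in all 258 alternatives tried, because its moves stayed within the spread. That does not mean steady values. With the replicate number as a block, hypothalamus against cortex on SC went from -1.24 to -0.44 for Flt1 and from -1.54 to -0.55 for Tek.

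Over all genes, no comparison had every same-numbered pair correlate over 0.1, so the replicate numbers were not taken as pairs. This rule cannot show that libraries of 1 number are independent. In cortex across diets, the r of such pairs ran from -0.04 to 0.55 (median 0.22). Cldn5 went with the number in several replicates on both diets, as given above. In the diet comparisons, 5 of 6 pairs in cortex and 4 of 5 in hippocampus correlated over 0.1, against 1 to 3 pairs in each other comparison. Between 1 and 4 of the 5 or 6 pairs matched best with their own number. The count expected without any pairing was not computed, so these matches do not show independence. With the replicate number as a block, the count was 0 for hypothalamus against cortex on SC, 0 for hippocampus against cortex on HFHS, 5 for hypothalamus against cortex on HFHS, 3 and 1 for hypothalamus against hippocampus on SC and HFHS, and 1 for the hypothalamus minus cortex interaction. The block also turned cortex diet values to 0.02 for Pecam1, 0.34 for Flt1, 0.58 for Tek, 0.30 for Tie1 and 0.12 for Slco1a4, and Kdr in hypothalamus against cortex on SC to 0.58.

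Directions that changed when 1 library was left out belonged to values not past the threshold. In hypothalamus the diet value ran from -0.47 to 0.02 for Pecam1 and from -0.46 to 0.09 for Ly6c1, and in hippocampus from -0.43 to 0.13 for Ly6c1. In cortex it ran from -0.95 to 0.12 for Pecam1, -0.57 to 0.38 for Flt1, -0.31 to 0.65 for Tek, -0.53 to 0.48 for Tie1, -0.68 to 0.33 for Slco1a4 and -0.06 to 1.04 for Abcb1a. Cortex SC replicate 4 gave the upper end of all 6 cortex ranges. Against cortex on SC, Kdr in hypothalamus ran from -0.25 to 0.48 and Slco1a4 in hippocampus from -0.96 to 0.03, each with its upper end without that library. Over all 35 libraries, including both cortex ranges, r with Cldn5 ran from 0.64 for Kdr to 0.98 for Flt1.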

Other observations

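Choroid plexus markers differed between hypothalamus and hippocampus, where no vessel gene of the 10 passed without the replicate block. In edgeR, 7 of 8 were lower in hypothalamus on SC and none on HFHS, with 4 at an unadjusted p under 0.05. They summed to between 134 and 32425 TPM in hippocampus SC and between 3929 and 28800 TPM in hippocampus HFHS, and had a median of 118 TPM in hypothalamus SC. Microglial markers in cortex went with the range of Cldn5: their sum was 168 TPM in cortex SC replicate 2, 241 in replicate 3 and 349 in replicate 6, and 548 and 506 TPM in cortex HFHS replicates 3 and 6. In the other 7 cortex libraries it lay between 1056 and 1703 TPM. The 14 markers of that list were detected in each group, and their part in the vessel gene ranges was not tested.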
